A study of Mus musculus with 16 samples.

Results

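The mitochondrial carriers of the SLC25 family were described in KM cells, with and without targeting of Eif4a2. Members were all genes whose symbol starts with Slc25a followed by a number, which gave 45 of the 20622 genes in the files. KM cells are a line made from lung tumours of 1 male mouse at clinical endpoint (age not given in the sources used here) carrying Rosa26 LSL-MYC/LSL-MYC, in which recombination had been induced by Ad5-SPC-CRE, an adenovirus that drives Cre from the promoter of a surfactant gene of alveolar type II cells. KM_NTC cells received a non-targeting guide RNA, and KM_4A2cr cells received a guide against Eif4a2, both from a lentiCRISPR vector with puromycin selection. Both lines thus share the same tumour origin and Cas9, and neither was treated. KM_4A2cr was pooled from several clones lacking eIF4A2, so that clone selection and loss of Eif4a2 cannot be told apart. Ribosome-protected fragments (RPFs, the pieces of mRNA shielded by a ribosome from nuclease) and cytoplasmic total RNA were sequenced from the same lysates, in 4 replicates per line and kind, 16 libraries in all.

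SLC25 proteins form most of the selective transport across the mitochondrial inner membrane. Each is built from repeats of a pair of membrane helices and alternates between a state open to the intermembrane space and a state open to the matrix, exchanging ADP for ATP, phosphate, citrate, malate, amino acids, carnitine esters, coenzymes or iron. They are made in the cytosol and enter the inner membrane through the TOM pore, small chaperones of the intermembrane space and the TIM22 complex. eIF4A2 is an RNA helicase, a paralogue of the initiation factor eIF4A1.

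The RPF libraries held between 4512403 and 9621848 counts and the total RNA libraries between 5350920 and 9312624. Replicate 4 was the lowest of the KM_NTC RPF libraries for 33.4% of all genes and the highest for 32.5%. These shares are not given for the other replicates. Leaving out replicate 4 raised the RPF calls over all genes from 1062 to 3469 (edgeR adjusted p under 0.1). Leaving out replicate 1, 2 or 3 lowered them to 232, 123 or 32. The called values are therefore also given without replicate 4. Eif4a2 RPFs were at 97.7, 122, 99.8 and 389 CPM (counts scaled for library size) in KM_NTC replicates 1 to 4, and at 51.0, 88.4, 74.8 and 346 in KM_4A2cr. The Eif4a2 footprints were lower in every pair of replicates (log2 fold change -0.49, edgeR adjusted p = 0.0941; without replicate 4, -0.60, adjusted p = 0.00304), whereas its mRNA did not pass the test (-0.18, adjusted p = 0.504). The epithelial genes Epcam, Cdh1, Krt8, Krt18 and Krt19 were present at 233 TPM (length-normalised transcript abundance) or more in every total RNA library. The type II cell genes Sftpc and Sftpb were listed at 0 in all 8. Nkx2-1, the lung lineage factor, reached at most 0.12 TPM, and Lamp3 ranged from 0.52 to 1.63. Defining markers of the alveolar type II cell were thus at or near 0 in this RNA. The authors state that surfactant protein C, the product of Sftpc, was among the markers by which they assessed the identity of the cells. The measure they used is not named, and any difference from these RNA values was not tested. Fibroblast genes summed to at most 3.03 TPM and endothelial genes to at most 1.94. Leukocyte genes summed to between 60.97 and 232 TPM, nearly all of it Cd68 and Cd14, with Ptprc at 0.67 or less and Adgre1 and Cd3e at 0; their part in the carrier values was not tested.

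To learn which carrier mRNAs these cells hold, levels were compared per length, as deposited TPM. Of the 45 members, 35 had enough total RNA counts to be tested, 32 of which also had enough RPF counts. The remaining 10 never exceeded 1.1 TPM, and 3 of them (Slc25a18, Slc25a21 and Slc25a54) were listed at 0 in all 8 libraries. These 10 include the testis ADP/ATP carrier Slc25a31 and the liver carrier Slc25a47. Slc25a27, Slc25a42 and Slc25a45 could be tested in total RNA alone.

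The ADP/ATP carrier Slc25a5 was the most abundant carrier mRNA, at 454 ± 183 TPM in KM_NTC and 380 ± 156 in KM_4A2cr (SD, n = 4 each). Slc25a3, which brings phosphate and copper into the matrix, followed at 212 ± 64.6 TPM in KM_NTC, and the second ADP/ATP carrier Slc25a4 at 153 ± 37.9. These 3 genes, which together supply ATP synthase with its substrates and export its product, made up 51.4% of the summed TPM of the family in KM_NTC. Each of the 3 stood above the next gene in the order by more than their pooled SD. Below them the order was less clear: Slc25a39 (92.6 TPM), a carrier needed for mitochondrial glutathione, Slc25a24 (80.1), a calcium-regulated exchanger of ATP-Mg for phosphate, the mitoferrin Slc25a37 (68.7), Slc25a48 (67.3), the citrate carrier Slc25a1 (62.7) and Slc25a30 (60.3) each differed from the next by less than the pooled SD of the pair, until the step from Slc25a30 to Slc25a46 (38.7). Footprints, not scaled for length, gave another order. Mean KM_NTC RPFs were 413 ± 156 CPM for Slc25a3 and 319 ± 96.6 for Slc25a5. Slc25a39 (15.6) and Slc25a37 (16.9) lay below Slc25a48 (83.1) and Slc25a1 (65.3).

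**Figure D1:**
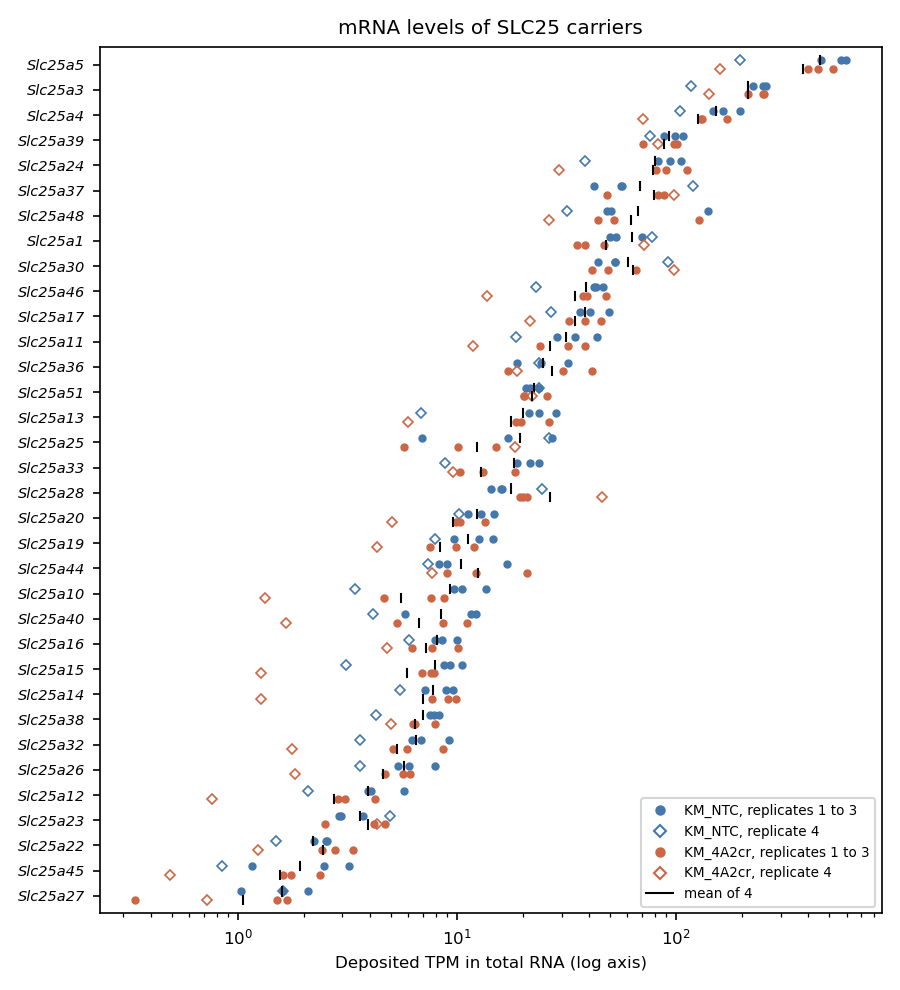
Deposited TPM of the 34 carriers with a mean of at least 1 TPM in KM_NTC total RNA, on a log axis, ordered by that mean. Filled circles are replicates 1 to 3 and open diamonds replicate 4 of KM_NTC (blue) and KM_4A2cr (orange), and black ticks are means of 4. Slc25a5 leads in both lines. The diamonds sit at the low end for most carriers and at the high end in both lines for Slc25a37, Slc25a30, Slc25a28 and Slc25a1.

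Between the paralogues, Slc25a4 gave 26.6 ± 5.78% of the combined Slc25a4 and Slc25a5 TPM in KM_NTC and 25.8 ± 3.51% in KM_4A2cr (n = 4). The coding sequences of these paralogues are alike, so reads that fit both could be split between them and their ratio is uncertain. Slc25a37 gave 78.4 ± 4.30% of the mitoferrin TPM in KM_NTC and 75.2 ± 6.70% in KM_4A2cr. The aspartate/glutamate carrier mRNA was mainly Slc25a13, since Slc25a12 gave 17.6 ± 3.96% of the pair's TPM in KM_NTC and 13.0 ± 1.16% in KM_4A2cr. In RPF counts, which are not scaled for length, the share of Slc25a12 was larger, at 33.2 ± 2.65% in KM_NTC.

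The family was then compared between the lines as a whole. The summed RPF counts of the members took 0.164 ± 0.0507% of all RPF counts in KM_NTC and 0.153 ± 0.0290% in KM_4A2cr, and the summed total RNA counts 0.189 ± 0.0227% and 0.177 ± 0.0159% (SD, n = 4 each). In both kinds of library the share was lower in KM_4A2cr in 3 of 4 pairs, by less than the spread between replicates. In RPFs, 20 of 32 tested members lay above 0 with a median log2 fold change of 0.09, against 48.9% of all genes and a median of -0.01. In total RNA, 14 of 35 lay above 0 with a median of -0.07, against 51.6% and 0.01. With scaling by library size alone the median of all genes moved by -0.14 in RPFs and -0.16 in total RNA, and the members' medians became -0.05 and -0.23, so that no direction is given here for the family.

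A test across all genes, edgeR with each replicate as a block and a threshold of 0.1 on the adjusted p, called 5 of 32 members in RPFs, where 10.3% of all genes were called (6.6% higher and 3.72% lower). Slc25a28, Slc25a37 and Slc25a30 rose and Slc25a12 and Slc25a25 fell. In total RNA 1 of 35 members was called, Slc25a28, which rose (background 6.13%, with 4.35% higher and 1.78% lower). Translational efficiency, the RPF change beyond that of the mRNA, was called for 1 of 32 members, Slc25a37, which rose (background 2.87%, with 1.87% higher and 1.0% lower). Without replicate 4 the counts were 7, 8 and 4 members, while the share of all genes called became 33.4%, 29.8% and 7.94%. Without replicate 1 the counts were 2, 0 and 0 (2.27%, 1.91% and 0.151% of all genes), without replicate 2 they were 0, 0 and 0 (1.2%, 1.3% and 0.191%) and without replicate 3 also 0, 0 and 0 (0.310%, 0.577% and 0.159%). At an unadjusted p under 0.05, RPFs of 6, 5 and 4 members passed edgeR's test without replicates 1, 2 and 3. Slc25a12, Slc25a25 and Slc25a30 lost their RPF call without any 1 of replicates 1 to 3, and Slc25a28 and Slc25a37 without replicate 2 or 3.

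**Figure D2:**
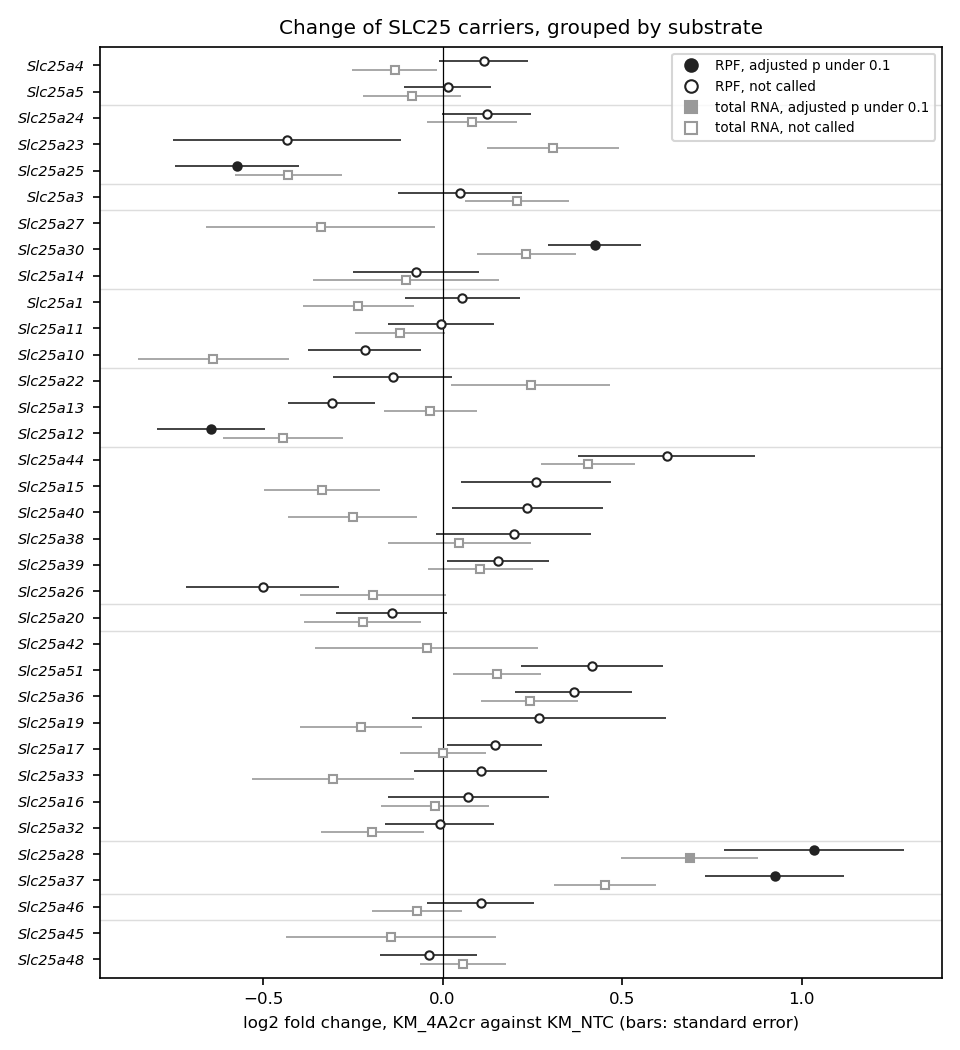
Fitted log2 fold changes of KM_4A2cr against KM_NTC for the 35 tested carriers, with standard errors as bars; circles are RPFs, squares total RNA, filled symbols have an adjusted p under 0.1, and grey lines separate substrate groups. Both mitoferrins (Slc25a28 and Slc25a37) lie to the right in RPFs and total RNA, and Slc25a12 and Slc25a25 to the left.

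The mitoferrins Slc25a37 and Slc25a28 bring iron into the matrix, where haem and iron-sulphur clusters are made; Slc25a37 is known mainly from erythroid cells and Slc25a28 from other tissues. Slc25a28 RPFs were at 6.79, 5.56, 8.63 and 11.3 CPM in KM_NTC replicates 1 to 4, and at 8.82, 11.2, 14.0 and 45.8 in KM_4A2cr. They were higher in KM_4A2cr in all 4 pairs, most of all in replicate 4, although the ranges of the lines overlapped. The fitted log2 fold change was 1.03 (SE 0.25, adjusted p = 0.054), and 0.69 without replicate 4 (adjusted p = 0.0144). Slc25a28 mRNA was at 10.2, 8.36, 7.84 and 19.5 CPM in KM_NTC and at 11.9, 11.1, 12.9 and 48.2 in KM_4A2cr. It too was higher in all 4 pairs, with a log2 fold change of 0.69 (SE 0.19, adjusted p = 0.0858) and of 0.43 without replicate 4 (adjusted p = 0.0709). The change in its translational efficiency did not pass the test (0.40, SE 0.19, adjusted p = 0.334; without replicate 4, 0.28, adjusted p = 0.547).

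Slc25a37 RPFs were at 10.1, 9.63, 10.7 and 37.3 CPM in KM_NTC and at 11.4, 19.9, 27.8 and 78.1 in KM_4A2cr. All 4 pairs were higher in KM_4A2cr, replicate 1 only slightly, and replicate 4 was the highest library of both lines. The log2 fold change was 0.93 (SE 0.19, adjusted p = 0.0333) and 0.88 without replicate 4 (adjusted p = 0.00788). Its mRNA was at 95.8, 109, 129 and 333 CPM in KM_NTC and at 115, 181, 206 and 368 in KM_4A2cr. All 4 pairs were again higher, with a log2 fold change of 0.45 that did not pass the test (SE 0.14, adjusted p = 0.123) and that did without replicate 4 (0.55, adjusted p = 0.000473). On the deposited TPM scale the mRNA was higher in 3 of 4 pairs, replicate 4 being at 120 in KM_NTC and 98.3 in KM_4A2cr. The RPFs thus changed more than the mRNA, by 0.51 on the log2 scale (SE 0.14, adjusted p = 0.0839), and in 3 of 4 pairs. Without replicate 4 this difference was 0.34 and no longer passed (adjusted p = 0.191). The share of Slc25a37 in the RPF counts of both mitoferrins was 63.8 ± 9.21% in KM_NTC and 62.5 ± 4.35% in KM_4A2cr, higher in 2 of 4 pairs.

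Slc25a30, an inner-membrane carrier related to the uncoupling proteins, was the third member with more footprints. Its RPFs were at 25.3, 26.5, 25.7 and 72.0 CPM in KM_NTC and at 31.5, 37.1, 30.3 and 112 in KM_4A2cr. All 4 pairs were higher, and in replicates 1 to 3 the lines did not overlap. The log2 fold change was 0.42 (SE 0.13, adjusted p = 0.0963), close to the threshold, and 0.35 without replicate 4 (adjusted p = 0.0553). Its mRNA, at 84.9, 86.6, 103 and 219 CPM in KM_NTC and 83.6, 116, 104 and 311 in KM_4A2cr, did not pass the test (0.23, SE 0.14, adjusted p = 0.416; without replicate 4, 0.14, adjusted p = 0.4). The related Slc25a14 had an RPF log2 fold change of -0.07.

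**Figure D3:**
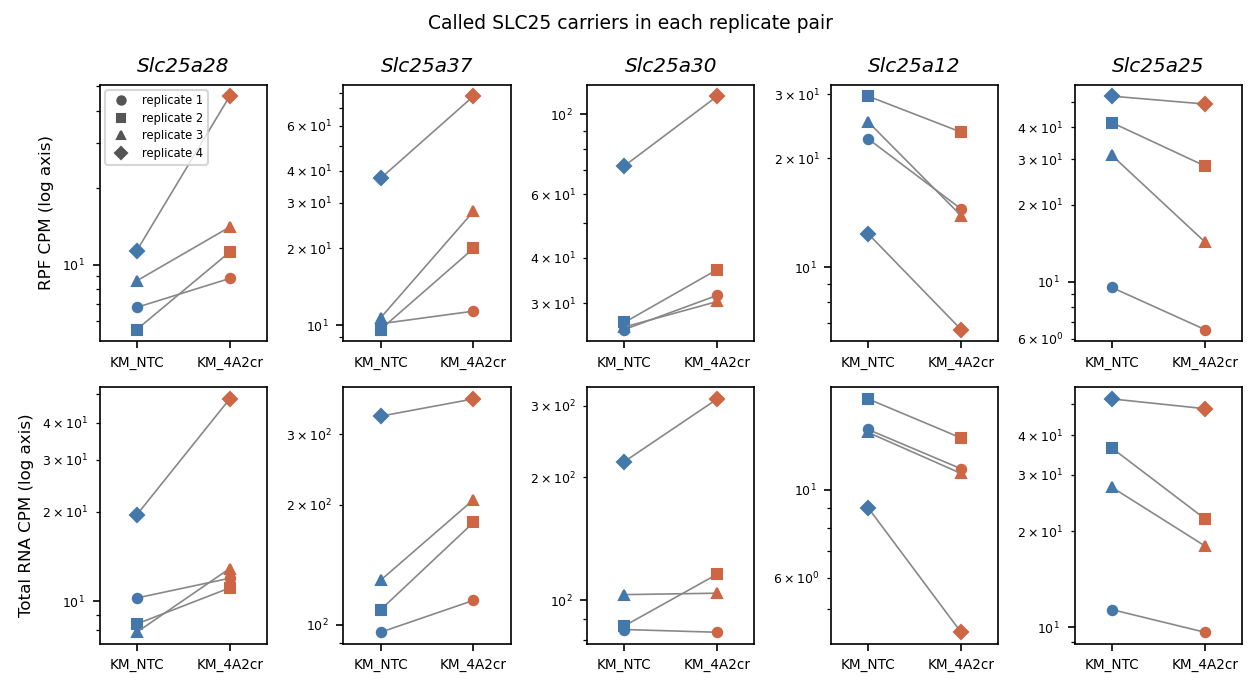
Scaled CPM of the 5 called carriers in RPFs (top) and total RNA (bottom), each panel with its own log axis; lines join the KM_NTC (blue) and KM_4A2cr (orange) libraries of a replicate, and symbols mark replicates 1 to 4. In the RPF panels every line rises for Slc25a28, Slc25a37 and Slc25a30 and every line falls for Slc25a12 and Slc25a25.

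Among the members that fell, Slc25a12 (aralar) exchanges aspartate for glutamate in the malate-aspartate shuttle, which carries reducing equivalents into mitochondria. Its RPFs were at 22.6, 29.7, 25.2 and 12.4 CPM in KM_NTC and at 14.5, 23.6, 13.9 and 6.73 in KM_4A2cr. They were lower in all 4 pairs, replicate 4 being the lowest library of both lines, with a log2 fold change of -0.65 (SE 0.15, adjusted p = 0.0479) and of -0.59 without replicate 4 (adjusted p = 0.0097). Slc25a12 mRNA was at 14.2, 16.9, 13.9 and 9.01 CPM in KM_NTC and at 11.3, 13.5, 11.0 and 4.38 in KM_4A2cr. It was lower in all 4 pairs but missed the threshold (-0.44, SE 0.17, adjusted p = 0.19; without replicate 4, -0.34, adjusted p = 0.107).

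Its paralogue Slc25a13 (citrin) had an RPF log2 fold change of -0.31 (SE 0.12, adjusted p = 0.167) and was at 51.4, 63.5, 49.4 and 21.4 CPM in KM_NTC and 42.9, 53.3, 38.0 and 16.7 in KM_4A2cr. All 4 pairs were lower, and the value passed without replicate 4 (-0.30, adjusted p = 0.0657). Slc25a13 mRNA gave -0.03. Slc25a12 took 33.2 ± 2.65% of the RPF counts of this pair in KM_NTC and 27.9 ± 2.37% in KM_4A2cr, and was lower in all 4 pairs. The glutamate carrier Slc25a22 had an RPF value of -0.14, so that 0 of the 3 tested aspartate and glutamate carriers lay above 0 in RPFs. The same held for their translational efficiency. In total RNA, however, Slc25a22 gave 0.25 (edgeR adjusted p = 0.607) and was higher in all 4 pairs.

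Slc25a25 belongs with Slc25a24 and Slc25a23 to the carriers whose calcium-binding domain faces the intermembrane space and which set the adenine nucleotide content of the matrix. Its RPFs were at 9.50, 41.7, 31.1 and 52.9 CPM in KM_NTC and at 6.52, 28.3, 14.3 and 49.3 in KM_4A2cr. The replicates ranged widely within each line and shared that pattern between the lines, with all 4 pairs lower in KM_4A2cr and replicate 4 the least so. The log2 fold change was -0.57 (SE 0.17, adjusted p = 0.0948) and -0.74 without replicate 4 (adjusted p = 0.00407). Its mRNA, at 11.4, 36.4, 27.4 and 51.9 CPM in KM_NTC and 9.65, 21.9, 18.0 and 48.4 in KM_4A2cr, was lower in all 4 pairs and did not pass the test (-0.43, SE 0.15, adjusted p = 0.157), but did without replicate 4 (-0.59, adjusted p = 0.00359). Slc25a24 was at 150, 154, 136 and 85.0 RPF CPM in KM_NTC and 142, 163, 164 and 99.9 in KM_4A2cr (log2 fold change 0.12, adjusted p = 0.592). The share of Slc25a25 in the RPF counts of the 3 carriers was 20.7 ± 13.0% in KM_NTC and 14.8 ± 12.3% in KM_4A2cr, lower in all 4 pairs.

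Slc25a12 and Slc25a25 both lie on chromosome 2, and they were the 2 members tested there. The 833 chromosome 2 genes tested in RPFs had a median log2 fold change of -0.21, and 85 of them (10.2%) were called lower, against 3.72% of all genes. Of those 833 genes, 5.88% lay below the value of Slc25a12 and 8.28% below that of Slc25a25. The part of the chromosome in their lower values was not tested.

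Of the 6 carriers with the highest TPM, the 5 besides Slc25a37 did not pass the test in either kind of library. Slc25a5 RPFs were at 403, 337, 354 and 180 CPM in KM_NTC and at 389, 382, 370 and 163 in KM_4A2cr (log2 fold change 0.01, SE 0.12, adjusted p = 0.959; without replicate 4, 0.06, adjusted p = 0.675). Slc25a4 RPFs were at 147, 121, 136 and 132 CPM in KM_NTC and at 172, 145, 138 and 126 in KM_4A2cr (0.11, SE 0.12, adjusted p = 0.622; without replicate 4, 0.17, adjusted p = 0.23). For both, the ranges of the lines overlapped, and replicate 4 was the lowest library of both lines for Slc25a5. Slc25a3 RPFs were at 533, 459, 476 and 184 CPM in KM_NTC and at 460, 440, 408 and 304 in KM_4A2cr, lower in replicates 1 to 3 and higher in replicate 4 (0.05, SE 0.17, adjusted p = 0.891; without replicate 4, -0.17, adjusted p = 0.243). Slc25a39 RPFs, from 9.43 to 20.7 CPM in KM_NTC and from 10.9 to 26.0 in KM_4A2cr, gave 0.15 (adjusted p = 0.551). The signs of the RPF values of Slc25a3, Slc25a4, Slc25a5 and Slc25a24 turned negative with scaling by library size alone.

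Of the members that were not called, the lowest p-values above 0 belonged to Slc25a44, Slc25a36 and Slc25a51. Slc25a44, which carries branched-chain amino acids, was at 3.80, 1.19, 2.47 and 2.52 RPF CPM in KM_NTC and at 7.37, 1.23, 3.93 and 3.23 in KM_4A2cr. All 4 pairs were higher (0.62, SE 0.25, adjusted p = 0.17), and its mRNA gave 0.41 (adjusted p = 0.129); without replicate 4 both passed (0.70, adjusted p = 0.0711, and 0.38, adjusted p = 0.0387). The pyrimidine nucleotide carrier Slc25a36 had an RPF value of 0.37 (SE 0.16, adjusted p = 0.214; without replicate 4, 0.31, adjusted p = 0.224), and the NAD carrier Slc25a51 one of 0.42 (SE 0.20, adjusted p = 0.245; without replicate 4, 0.41, adjusted p = 0.197). Below 0 stood Slc25a13, described above, Slc25a26 and Slc25a10. Slc25a26, which brings S-adenosylmethionine into the matrix, was at 5.16, 4.76, 5.48 and 1.26 RPF CPM in KM_NTC and at 4.23, 2.95, 3.79 and 0.808 in KM_4A2cr, lower in all 4 pairs (-0.50, SE 0.21, adjusted p = 0.197; without replicate 4, -0.49, adjusted p = 0.123). The dicarboxylate carrier Slc25a10 had an RPF value of -0.22 (adjusted p = 0.449), and its mRNA, at 14.2, 8.63, 11.2 and 4.41 CPM in KM_NTC and 8.34, 8.27, 5.3 and 2.3 in KM_4A2cr, was lower in all 4 pairs (-0.64, SE 0.21, adjusted p = 0.137; without replicate 4, -0.59, adjusted p = 0.0294).

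The other substrate groups held no call over all 4 replicates. The di- and tricarboxylate carriers ran from -0.22 to 0.06 in RPFs (3 tested) and from -0.64 to -0.12 in total RNA (3 tested). The carriers of nucleotides, coenzymes and vitamins ran from -0.01 to 0.42 in RPFs, with 6 of 7 above 0, and from -0.30 to 0.24 in total RNA, with 3 of 8 above 0. Carriers of other amino acids, S-adenosylmethionine and glutathione ran from -0.50 to 0.62 in RPFs, with 5 of 6 above 0. The carnitine/acylcarnitine carrier Slc25a20 gave -0.14 in RPFs, and Slc25a46, an outer-membrane member that acts in mitochondrial dynamics, gave 0.11. Slc25a2, Slc25a43 and Slc25a52 had no entry under these symbols in the deposited counts, so they are not among the members.

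Footprint and mRNA changes were then set side by side. Across the 32 members with both, Pearson's r was 0.64 and Spearman's rho 0.46, a description over genes that share the same 16 libraries. The changes had the same sign for 20 members, lay above 0 in RPFs and below 0 in total RNA for 9, and the reverse for 3. Translational efficiency lay above 0 for 23 of 32 members with a median of 0.14, against 47.4% of all genes and a median of -0.02. Without replicate 1 it was 20 of 31 with a smaller median of 0.06. Without replicates 2, 3 and 4 it was 23, 25 and 23 of 32 (medians 0.17, 0.21 and 0.20). With all 4 replicates, 1 of the 23 above 0 passed the test, Slc25a37. Without replicate 4 it was not among those that passed: the ADP/ATP carriers Slc25a4 (0.33, adjusted p = 0.0362) and Slc25a5 (0.24, adjusted p = 0.0975) and the pyrimidine nucleotide carrier Slc25a33 (0.60, adjusted p = 0.0501) were then higher, and Slc25a23 was lower (-1.10, adjusted p = 0.0891). Slc25a23 rests on 0.982 to 4.58 RPF CPM per library.

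**Figure D4:**
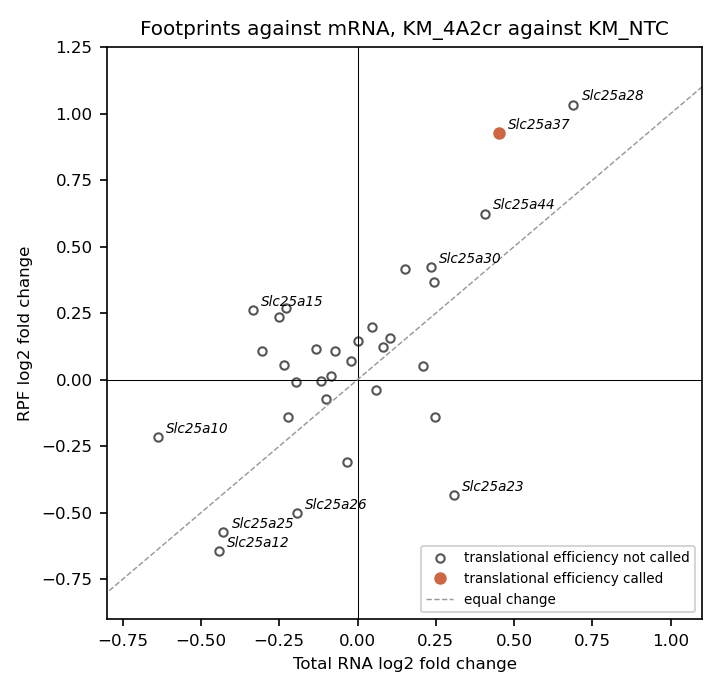
RPF against total RNA log2 fold change of the 32 carriers tested in both, KM_4A2cr against KM_NTC; the dashed line marks equal change and the filled point the carrier whose translational efficiency was called. Most points lie above the dashed line, and Slc25a37 and Slc25a28 stand at the upper right.

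Carrier values also varied between the replicates of a line. Replicate 4 was the lowest of the 4 RPF libraries for 16 of 32 members in each line, against 33.4% of all genes in KM_NTC and 37.1% in KM_4A2cr, and the median member lay 0.31 below the mean of the other 3 on the log2 scale in each line. The summed TPM of the family was 1107 in replicate 4 of KM_NTC, against 1559 to 1872 in the others, and 988 in replicate 4 of KM_4A2cr, against 1464 to 1791. Replicate 4 was the highest RPF library for 8 of 32 members in each line, against 32.5% of all genes in KM_NTC and 34.4% in KM_4A2cr. In both lines these carriers include 4 of the 5 called ones. Slc25a37 RPFs stood 1.85 above the mean of replicates 1 to 3 in KM_NTC and 2.06 above in KM_4A2cr, Slc25a30 1.47 and 1.76, Slc25a25 1.18 and 1.81, and Slc25a28 0.70 and 2.01. The citrate carrier Slc25a1, which feeds cytosolic acetyl-CoA for lipid synthesis, stood 0.89 and 1.65 above, while Slc25a13 lay -1.34 and -1.39 from that mean and Slc25a5 -1.01 and -1.22. Why replicate 4 differs was not tested. All 5 called RPF values kept their sign without it.

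**Figure D5:**
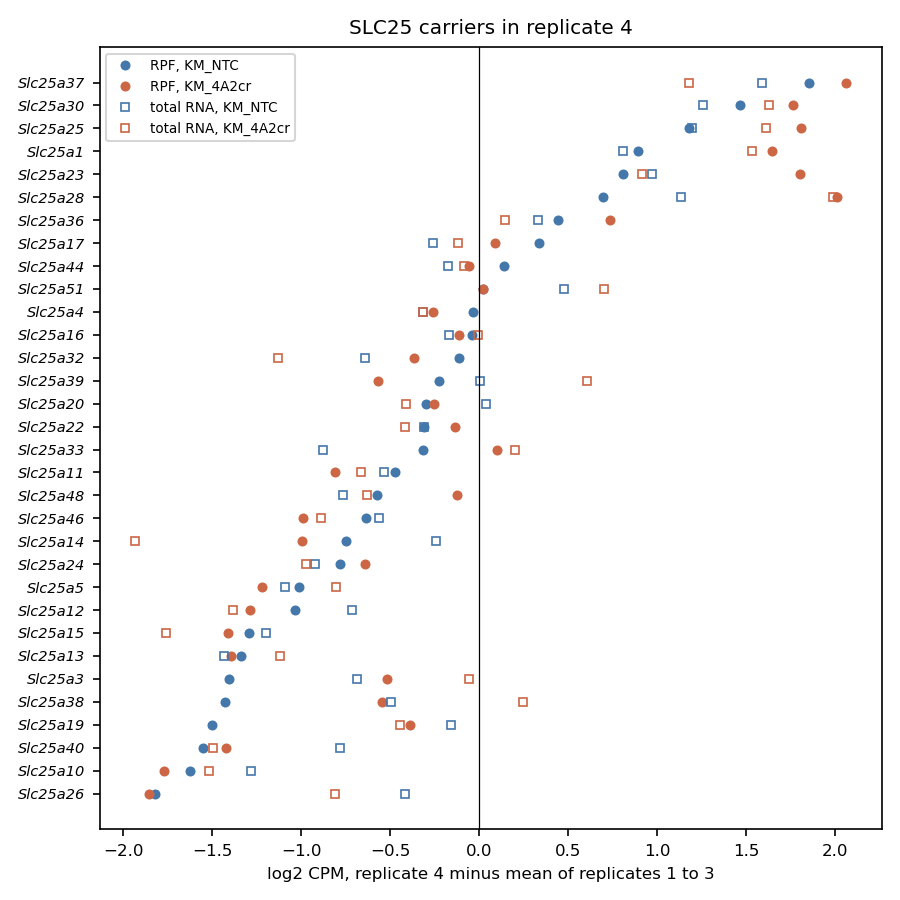
Difference between replicate 4 and the mean of replicates 1 to 3 in log2 CPM for the 32 carriers tested in both kinds of library; circles are RPFs and squares total RNA, blue KM_NTC and orange KM_4A2cr. Slc25a37, Slc25a30, Slc25a25, Slc25a1, Slc25a23, Slc25a28, Slc25a36 and Slc25a51 lie to the right in all 4 groups, and most other carriers to the left.

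Genes around the carriers were taken from 3 lists. Of the proteins that import carriers into the inner membrane, 4 of 16 tested genes lay above 0 in RPFs (median -0.16; 48.9% of all genes) and 0 passed edgeR's test (10.3% of all genes); 0 were higher and 4 lower without replicate 4 (33.4% called). In total RNA the TIM22 channel subunit Timm22 rose, from 33.8, 26.4, 38.8 and 202 CPM to 49.5, 38.4, 49.0 and 243 (0.42, SE 0.12, adjusted p = 0.0978; without replicate 4, 0.47, adjusted p = 0.00364), while its RPFs gave -0.08, and its translational efficiency was lower (-0.51, adjusted p = 0.0811; without replicate 4, -0.45, adjusted p = 0.0696). Of other transporters of mitochondria, 11 of 17 tested lay above 0 in RPFs (median 0.07) and 1 passed, against 10.3% of all genes; 3 were higher and 2 lower without replicate 4. The called gene, Ucp2, an uncoupling protein of the same protein family under another symbol, fell. Ucp2 RPFs were at 2.63, 6.35, 14.9 and 1.05 CPM in KM_NTC and at 2.05, 1.35, 1.12 and 1.88 in KM_4A2cr, lower in 3 of 4 pairs and higher in replicate 4 (-1.80, SE 0.55, adjusted p = 0.0974; without replicate 4, -2.17, adjusted p = 0.0032). Its mRNA did not pass (-0.32, adjusted p = 0.45) but did without replicate 4 (-0.53, adjusted p = 0.00894), and its translational efficiency was lower (-1.46, SE 0.37, adjusted p = 0.0566; without replicate 4, -1.62, adjusted p = 0.00219). Ucp2 mRNA is known to carry an upstream open reading frame that limits its translation. Of the enzymes that use the carried substrates, 4 of 26 tested lay above 0 in RPFs (median -0.11) and 0 passed, against 48.9% and 10.3% of all genes; 1 was higher and 6 lower without replicate 4. In total RNA the carnitine palmitoyltransferase Cpt1c fell, from 3.79, 2.70, 1.35 and 4.79 CPM to 2.29, 0.763, 0.757 and 2.07 (-1.13, SE 0.30, adjusted p = 0.0717; without replicate 4, -1.11, adjusted p = 0.0273), on 92 counts in the 4 KM_NTC libraries and 33 in KM_4A2cr.

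Promoter letters were searched to see what the members share beyond their symbol. RefSeq windows from 250 bases before to 50 after the start site were matched for 35 member genes, in 45 windows of the GRCm38.p6 build, on both strands. The E-box CACGTG, which MYC and related factors bind, was in 17.8% of member windows and 7.15% of all 32851, the cAMP response element TGACGTCA in 4.44% and 1.79%, and the ERR motif TCAAGGTCA in 0% and 0.423%. The 8 E-box windows belonged to 7 genes, Slc25a1, Slc25a13, Slc25a14, Slc25a15, Slc25a31, Slc25a33 and Slc25a36, and the cAMP elements to Slc25a25 and Slc25a36. The same Slc25a14 site was counted in overlapping windows. Of the called members with windows (Slc25a12, Slc25a25, Slc25a28 and Slc25a30), Slc25a25 held a match. Windows of 30 bases are shown around the matches of Slc25a25, of Slc25a36, which holds both motifs, and, from the other E-box carriers, of Slc25a13 and Slc25a1. They are shown because they carry those matches, with the motif in capitals, on the minus strand in each case.
Slc25a25, chr2:32424198-32424227: tctgcaagcagTGACGTCAgtcctgatctt
Slc25a36, chr9:97111184-97111213: tgcgaacctcgTGACGTCAcgcggcctaag
Slc25a36, chr9:97111211-97111240: cccctgggcgatCACGTGaaagaggcgtgc
Slc25a13, chr6:6217281-6217310: cacagtctgagtCACGTGtcctggcccctc
Slc25a1, chr16:17928440-17928469: cgctccagacgCACGTGtctctaaactgca
A match describes these letters and not the binding of a factor, and these coordinates are of another build than the annotation behind the counts.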

How the data were processed

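KM_NTC and KM_4A2cr cells were profiled by RPF and total RNA sequencing in 4 replicates, described as independent experiments on different days; that a number marks a shared day is not stated. According to the deposited files and methods, the authors trimmed reads with cutadapt 1.18, removed PCR duplicates with UMI-tools 1.0.1, aligned RPFs to 1 transcript per gene with BBmap and counted them over its coding sequence without the ends (counts, not normalised) and aligned total RNA with Bowtie2 2.3.5.1 for RSEM 1.3.3 on GENCODE vM27, which gave expected counts and TPM per isoform. Both were deposited per library.

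Here counts and rounded expected counts were summed per gene and tested with edgeR 4.0.16 (R 4.3.3): filterByExpr (minimum count 10), TMM scaling, a replicate block, quasi-likelihood test and Benjamini-Hochberg adjustment over all genes. Translational efficiency was the interaction of line and kind of library. Deviations of same-numbered libraries from their group means correlated at 0.575 to 0.782 in RPFs and 0.611 to 0.756 in total RNA, and each library correlated best with its own number, so the numbers were taken as pairs. CPM are TMM-scaled. In simulated data, 86.4% (RPFs, 10303 genes), 92.8% (total RNA, 10937) and 63.5% (translational efficiency, 10032) of genes changed by 1 on the log2 scale were recovered. Of the calls made there, 9.04%, 7.65% and 12.6% were unchanged genes. Most called carrier values were smaller than 1, and recovery of smaller changes was not simulated. In bulk samples, more RNA per cell and more cells with that RNA cannot be told apart. Named members were the called ones, the 6 with the highest KM_NTC TPM and the 3 uncalled with the smallest RPF p in each direction; from the lists, called genes. Slc25a48, and members named from the fits without replicate 4, from substrate groups or from the plots, were named after their values were seen. Members and lists were chosen with earlier results of these data known. Alternatives were no block, DESeq2 1.42.0, other scalings and filters, leaving out a replicate, a threshold of 0.05 and, for total RNA, the RPF isoform alone. Part of the genotype of the cells is not reported here.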

Additional observations from a re-analysis of the deposited data

Results flagged for a closer look

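Of 64 groups of 4 libraries checked among the 16 named members, 14 had 1 library far from the other 3. In all 14 it was replicate 4. Dixon's test at 95% was used, for which chance gives about 5% of independent groups. The groups here share the same 16 libraries and are not independent, and no such share over all genes is given. Over all genes, replicate 4 was the lowest KM_NTC RPF library for 33.4% and the highest for 32.5%. The flags are therefore not read as particular to the carriers. For Slc25a28 in KM_4A2cr, replicate 4 was the highest at 45.8 CPM in RPFs and 48.2 in total RNA. For Slc25a30 it was the highest in all 4 groups, at 72.0 and 112 CPM in KM_NTC and KM_4A2cr RPFs and at 219 and 311 in total RNA. For Slc25a37 in KM_NTC it was the highest at 37.3 CPM in RPFs and 333 in total RNA, and for Slc25a51 in KM_4A2cr total RNA at 87.4, against 51.2 to 56.6 in the others. Replicate 4 was the lowest library for Slc25a5 in KM_4A2cr, at 163 CPM in RPFs and 158 in total RNA, for Slc25a13 in KM_NTC total RNA at 13.8, for Slc25a26 in KM_NTC RPFs at 1.26, and for Slc25a10 in KM_NTC RPFs at 6.92. RPF and total RNA changes of Slc25a37 differed by 0.51 on the log2 scale (edgeR interaction, adjusted p = 0.0839, higher in 3 of 4 pairs; over the alternatives from 0.34 to 0.68). The causes were not tested.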

How the results depend on the processing

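The direction of the 7 called values was kept in all 79 alternatives tried, and the call in 42. Without the replicate block the counts of members called were 0 in RPFs, 0 in total RNA and 0 in translational efficiency, with 1, 0 and 0 members at an unadjusted p under 0.05, and over all genes 0 were called in each; with the block, 8, 6 and 9 members were under 0.05. Leaving out 1 replicate gave 0 to 7 members in RPFs, 0 to 8 in total RNA and 0 to 4 in translational efficiency: without replicate 2 or 3 there were 0 in all 3 (unadjusted p under 0.05 for 5 and 4 members in RPFs, 4 and 2 in total RNA, 3 and 7 in translational efficiency), without replicate 1 there were 2, 0 and 0, and without replicate 4 there were 7, 8 and 4. Over all genes, RPF calls without replicates 1 to 4 were 232, 123, 32 and 3469 (1062 with all 4). DESeq2 gave 4 members in RPFs, 0 in total RNA and 0 in translational efficiency (5, 5 and 3 under 0.05; 9.31%, 5.41% and 1.36% of all genes called). Scaling by library size gave 6 in RPFs (2 higher and 4 lower), 3 lower in total RNA and 0 in translational efficiency, where it called 15.7% (482 genes higher and 1137 lower), 10.4% (262 and 868) and 1.33% of all genes. In total RNA, upper-quartile scaling gave 0 (4.97% of all genes; 7 members under 0.05), the RPF isoform alone 0 (4.81%; 4 under 0.05), and no filter 4 (2 higher and 2 lower; 7.18%). At a threshold of 0.05 there were 2, 0 and 0. The RPF values ranged over the alternatives from -0.79 to -0.54 for Slc25a12, -0.74 to -0.37 for Slc25a25, 0.69 to 1.29 for Slc25a28, 0.30 to 0.51 for Slc25a30 and 0.80 to 1.16 for Slc25a37. The Slc25a30 call was also lost under DESeq2, library size, upper-quartile scaling and no filter. Of 481 alternatives of the 41 uncalled values, 16 changed sign and 17 passed the threshold. No called value reversed. The causes were not tested. Members with few RPF counts, at most 47 over 8 libraries for those not tested, give no estimate at this depth.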

Other observations

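Slc25a48, an inner-membrane carrier expressed at 67.3 TPM in KM_NTC, set replicate 1 apart. Its mRNA was at 139, 48.1, 50.3 and 31.6 TPM in KM_NTC replicates 1 to 4 and at 128, 44.0, 52.2 and 26.3 in KM_4A2cr. Its RPFs were at 158, 43.8, 76.4 and 54.3 CPM in KM_NTC and at 143, 42.9, 63.8 and 67.0 in KM_4A2cr. Replicate 1 was the highest library of both lines in both kinds, and replicate 4 was the lowest of both lines in TPM. Slc25a44 also had replicate 1 highest in both lines and both kinds. For Slc25a48 the lines themselves did not differ beyond the spread of its replicates (RPF log2 fold change -0.04, SE 0.13, edgeR adjusted p = 0.893). Slc25a25 had replicate 1 at the other end in the same libraries: replicate 1 was its lowest in both lines, at 9.50 and 6.52 RPF CPM. These patterns were noticed after the values were seen, and no cause was tested.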
